A study of Mus musculus with 18 samples.

Results

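Vwf, Thbd, Procr, F3, F8, Tfpi, F2r and Anxa2 are 8 genes through which the vessel wall starts, brakes or senses blood clotting. They were found by an exact match of the gene symbol in the annotated array table, and each was read by 1 transcript cluster, so they make up 8 of 25254 transcript clusters that carry a symbol. The data are 18 Affymetrix Mouse Gene 1.0 ST arrays, in 6 groups of 3, from glomerular cells of mice 5 weeks old. Endothelial cells carried Tie2-GFP and mesangial cells Meis1-GFP, each a GFP transgene driven by the named promoter, podocytes carried GFP too, and GFP-positive cells were sorted from dissociated glomeruli. The comparisons by genotype set Cd2ap-/- mutants (B6.129X1-Cd2ap tm1Shaw/J), a model of focal segmental glomerulosclerosis that lacks a slit diaphragm adapter protein in all cells, against Cd2ap wild type or control mice with the same reporter. The mesangial comparison arrays are called control here, as in their sample titles. Their sample records otherwise say wild type, but their column headings carry the sign +:-, which reads as heterozygous. The endothelial and podocyte headings carry + on both sides, so the genotype of the mesangial comparison arrays is uncertain. Whether an array held RNA from 1 mouse or from several is not given in the sources used here, so p-values measure the spread between arrays. The arrays of a group are called A, B and C, which are names only.

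Endothelial cells keep blood fluid with surface proteins and answer injury by exposing procoagulant ones. Tissue factor, the product of F3, starts clotting when it meets factor VII, and thrombin then amplifies it through factor VIII, which travels in plasma bound to von Willebrand factor. Tissue factor pathway inhibitor (Tfpi) blocks the first step, thrombomodulin (Thbd) turns thrombin toward activation of protein C, and the endothelial protein C receptor (Procr) presents protein C to that complex. The thrombin receptor encoded by F2r passes thrombin's signal into the cell, and annexin A2 (Anxa2), with its partner S100a10, gathers plasminogen and its activator at the cell surface.

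The array medians lay between 62.8 and 71.6 signal units, and a signal of 100, the minimum used in the study's own workflow, served as the limit for testing. A gene under it in all arrays of 1 compared group would enter a test only through the group in which it is high, so differences, tests and counts of members and listed genes below, and the shares of all clusters beside them, are limited to clusters with at least 1 array at the minimum in every group of the comparison, and signals are given for the other members. The Cd2ap signal did not overlap between the genotypes in any cell type, but its direction differed: it was 891 to 966 in mutant and 757 to 859 in wild type endothelial cells, 797 to 870 in mutant and 922 to 1123 in control mesangial cells, and 1478 to 1512 in mutant and 1546 to 2108 in wild type podocytes. Whether its probes lie in the disrupted part of the gene is not known here, so this signal does not check the genotype labels, and in endothelial cells the mutants were the higher group. All 12 endothelial markers (Pecam1, Cdh5, Kdr and others) were above 100 in every endothelial array, 8 of 9 mesangial markers in every mesangial array and 9 of 9 podocyte markers in every podocyte array. These counts do not separate the sorts. In every wild type podocyte array 8 of 9 mesangial and 10 of 12 endothelial markers also reached 100, as did 6 of 12 endothelial markers in every control mesangial array. The summed signal of each list was higher in every array of its own cell type than in any other array. Markers of other cell types were present in some sorts. Control mesangial array C had a summed endothelial marker signal of 10246 against 4812 and 5088 in arrays A and B, a podocyte sum of 4046 against 993 and 1145, and an erythroid sum of 7337 against 669 and 376. In podocyte arrays the endothelial sum was 6111, 6882 and 5313 in wild type but 3378, 1672 and 1031 in mutants, and the mesangial sum was 4306, 3631 and 3278 in wild type and 3034, 2845 and 1079 in mutants. Values without control array C are given below for F8, Thbd, Tfpi and the member counts between cell types, and for F2r and Tfpi between genotypes.

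RefSeq promoter windows (build GRCm38.p6) were at hand for 6 of 8 members, and the 250 bases before the start were searched on both strands for exact letters. The AP-1 letters TGANTCA, the binding sequence of Fos and Jun factors, were in the windows of 4 of 6 members, F3, F2r, Procr and Anxa2, and in 6.75% of all 32851 promoter windows of that length. The KLF letters CCACCC, a sequence bound by Krüppel-like factors, were in the same 4 windows and in 28.1% of all windows. The windows of Procr, F8 and Tfpi overlap the span that RefSeq gives to the same gene, so they do not lie wholly upstream of the gene, and a match or its lack there is not one before its first start. The windows of F3, F2r and Anxa2 are shown because each holds both and lies upstream of the gene, with AP-1 and KLF matches in capitals and the last base next to the start. They lie at chr3:121723287-121723536 on the plus strand, chr13:95618467-95618716 on the minus strand and chr9:69453433-69453682 on the plus strand.
F3: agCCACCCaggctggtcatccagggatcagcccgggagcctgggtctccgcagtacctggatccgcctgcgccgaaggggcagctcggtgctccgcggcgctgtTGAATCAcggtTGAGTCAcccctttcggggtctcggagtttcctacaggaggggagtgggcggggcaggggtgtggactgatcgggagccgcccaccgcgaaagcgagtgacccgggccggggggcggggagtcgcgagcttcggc
F2r: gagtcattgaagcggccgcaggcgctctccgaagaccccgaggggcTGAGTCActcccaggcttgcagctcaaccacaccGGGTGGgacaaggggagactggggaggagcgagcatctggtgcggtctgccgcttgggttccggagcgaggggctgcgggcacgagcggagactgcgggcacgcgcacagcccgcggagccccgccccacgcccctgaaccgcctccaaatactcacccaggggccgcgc
Anxa2: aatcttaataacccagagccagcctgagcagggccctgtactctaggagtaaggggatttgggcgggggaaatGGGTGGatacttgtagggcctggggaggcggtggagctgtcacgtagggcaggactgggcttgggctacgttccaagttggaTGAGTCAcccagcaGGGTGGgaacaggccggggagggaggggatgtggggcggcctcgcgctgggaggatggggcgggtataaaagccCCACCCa

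F3 holds AP-1 letters at -146 and -135 and KLF letters at -248, counted back from the start at -1. F2r holds AP-1 letters at -204 and KLF letters at -170. Anxa2 holds AP-1 letters at -95 and KLF letters at -177, -81 and -7, and Procr has AP-1 letters at -154, KLF letters at -163 and the ETS letters CGGAAG at -85. The second of the Tfpi windows holds the ETS letters AGGAAG at -92 and -41 and the GATA letters AGATAA at -54. The windows of F8 and the first of Tfpi hold none of the 7 letter strings searched, and the interferon-stimulated and gamma-activated (TTCNNNGAA) letters were in no window. The share of all windows was 29.5% for AGGAAG, 13.6% for CGGAAG, 9.99% for AGATAA, 2.98% for the interferon-stimulated letters and 7.02% for TTCNNNGAA. A match is a description of letters, not of a bound site.

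**Figure D1:**
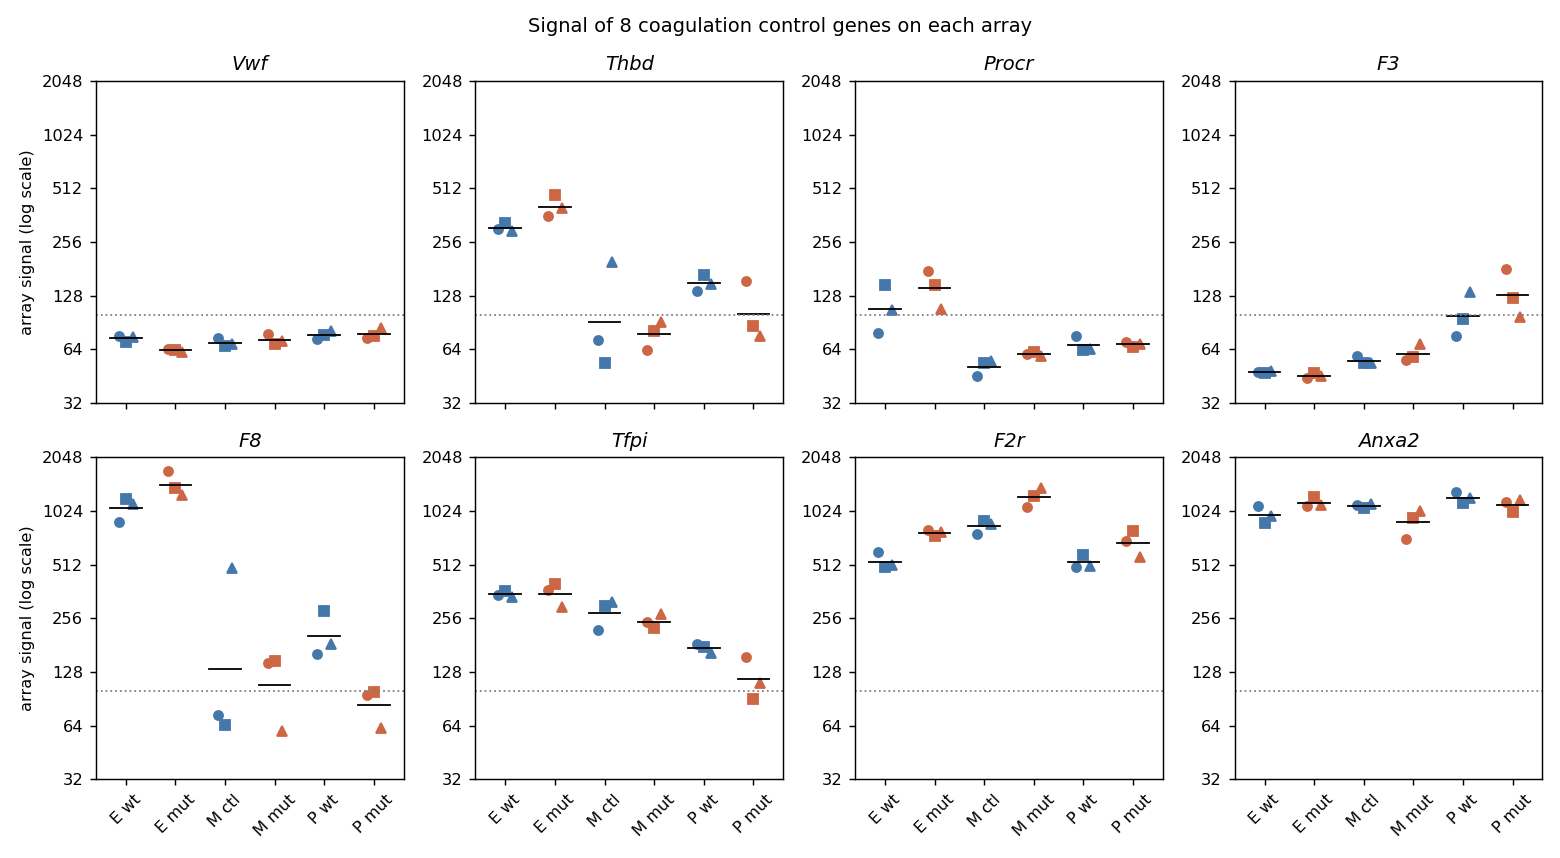
Array signal of the 8 genes (log scale), 1 point per array (circle A, square B, triangle C), for endothelial cells (E), mesangial cells (M) and podocytes (P), with wild type or control in blue and mutant in orange; the bar is the geometric mean of 3 arrays and the dotted line is the signal minimum of 100. F8 spans 60.1 to 1721 and is high in all 6 endothelial arrays, F2r lies higher in mutant than in wild type or control geometric means in each cell type, and Vwf stays under 100 in all 18 arrays.

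The first question was where each member is expressed. F8, the cofactor that the tenase complex needs, had the widest range of the members, from 60.1 to 1721 over 18 arrays. Its signal was 894, 1203 and 1122 in wild type endothelial cells, 162, 283 and 184 in wild type podocytes and 73.6, 64.9 and 491 in control mesangial arrays A, B and C. The endothelial arrays were above every other array, and the mesangial arrays overlapped the podocyte arrays only through array C. The endothelial level exceeded the podocyte level by 2.39 on the log2 scale (SE 0.64, limma adjusted p = 0.0151). Without wild type podocyte array C the lead was 2.31 (adjusted p = 0.0503). Control mesangial array C is not in this difference, so leaving it out changed only the spread pooled over the groups (adjusted p = 1.6e-05). Of the control mesangial arrays only C, the array with markers of other cell types, reached the minimum, so no difference of F8 against these mesangial cells is given.

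Vwf, the carrier of factor VIII and the protein that tethers platelets, was never above the signal minimum. Its signal ran from 61.9 to 84.6 over 18 arrays, with 70.8, 74.8 and 75.8 in wild type and 61.9, 63.2 and 64.2 in mutant endothelial cells. It was therefore not tested in any comparison, and a signal under 100 in an array does not show that the gene is off. Other genes of von Willebrand factor handling, Adamts13 (its cleaving protease), Selp and Mmrn1, were also under 100 in every array of all 6 groups.

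Thbd was highest in endothelial cells. It gave 301, 327 and 294 in wild type endothelial cells, 135, 168 and 148 in wild type podocytes and 72.3, 53.6 and 198 in control mesangial arrays A, B and C. The endothelial arrays did not overlap the others, while mesangial array C was above all 3 podocyte arrays. The endothelial lead over podocytes, 1.03 on the log2 scale (SE 0.38), had limma adjusted p = 0.0580. With 1 array left out the adjusted p ran from 0.000236, without mesangial array C, to 0.139. Mesangial array C is not in this difference, so leaving it out changed only the spread pooled over the groups. As for F8, array C was the 1 control mesangial array above the minimum, and no difference against these mesangial cells is given.

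Procr was near the signal minimum. It reached 78.8, 146 and 107 in wild type endothelial cells, and stayed at 45.3 to 55.01 in control mesangial cells and 63.5 to 76.3 in wild type podocytes. Only endothelial arrays, 5 of 18, reached 100, and the highest mesangial and podocyte values of these groups lay below the lowest endothelial one. No difference between cell types is given for it.

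Tfpi fell into a graded order. It gave 347, 365 and 337 in wild type endothelial cells, 221, 299 and 315 in control mesangial cells and 185, 178 and 163 in wild type podocytes, so that no 2 of these groups overlapped. Podocytes lay below endothelial cells by 1.00 (log2, SE 0.13, limma adjusted p = 0.00029) and below mesangial cells by 0.65 (SE 0.13, adjusted p = 0.0052). The neighbours endothelial and mesangial differed by 0.35 (95% interval 0.05 to 0.64) with adjusted p = 0.0730, and by 0.44 with adjusted p = 0.0351 when control array C was left out.

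F3 reached the signal minimum in podocytes alone. It gave 75.9, 94.5 and 135 in wild type podocytes, 53.6 to 58.7 in control mesangial cells and 47.4 to 48.4 in wild type endothelial cells. Only 3 of 18 arrays reached 100, all of them podocyte arrays, and among the wild type arrays array C alone. The podocyte values lay above all endothelial and mesangial ones, and the mesangial values above the endothelial ones. No difference between cell types is given for it either.

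F2r was measured in all 18 arrays and was highest in mesangial cells. It gave 764, 901 and 871 in control mesangial cells, 602, 497 and 509 in wild type endothelial cells and 501, 579 and 506 in wild type podocytes. The mesangial arrays were above all others, and endothelial and podocyte arrays overlapped. Mesangial cells exceeded podocytes by 0.68 (log2, SE 0.11, limma adjusted p = 0.0016), the endothelial minus mesangial difference was -0.66 (SE 0.11, adjusted p = 0.0016), and the endothelial minus podocyte difference was 0.02 (95% interval -0.23 to 0.27).

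Anxa2 was high and nearly level across cell types. Its wild type or control values were 1100.5, 883 and 959 in endothelial cells, 1105, 1073 and 1118 in mesangial cells and 1311, 1135 and 1206 in podocytes. Podocytes lay above endothelial cells by a small margin (endothelial minus podocyte -0.32, SE 0.10, limma adjusted p = 0.0337), which missed the threshold when any of 4 arrays was left out and, with adjusted p = 0.0526, with array medians subtracted. Its partner S100a10 was ordered differently, with 1602, 1357 and 1107 in wild type endothelial cells against 681 to 997 in wild type podocytes (log2 0.76, adjusted p = 0.00758).

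The limit above left Vwf, Procr and F3 out of the counts between cell types. Between endothelial and mesangial cells 3 of 5 were called, where 28.8% of all clusters held to the same rule were, but F8 and Thbd enter this count through control array C alone, and F2r, lower in endothelial cells, is the call that does not. Between endothelial cells and podocytes 3 of 5 differed (35.2% of all such clusters), and between mesangial cells and podocytes 2 of 5 (26.8%). Without control array C, where F8 and Thbd have no mesangial array at the minimum, the counts were 2 of 3 (Tfpi and F2r), 4 of 5 and 2 of 3 (Tfpi and F2r), and the shares of clusters were 24.3%, 35.8% and 23.2%. The count between endothelial cells and podocytes was 1 without wild type podocyte array C, where F8 had adjusted p = 0.0503. In mutants the counts were 2 of 4, 2 of 4 and 2 of 3, where 18.4%, 43.3% and 28.2% of such clusters were called. The F8 difference between mutant endothelial and mesangial cells was 3.73, and in mutant podocytes no array of F8 reached the minimum. The Thbd difference between mutant endothelial cells and podocytes was 2.01. Thbd enters that count through mutant podocyte array A alone (155, against 86.3 and 76.2 in arrays B and C). Array A also had the highest endothelial marker sum of its group, 3378. In mutant mesangial cells no array of Thbd reached the minimum. F2r was again higher in mesangial cells than in podocytes (mesangial minus podocyte 0.86, adjusted p = 0.00208). F3 was 180, 124 and 97.1 in mutant podocytes, and no mutant endothelial or mesangial array of F3 reached 100. In these sorted cells, fewer endothelial cells in a sample and less RNA per endothelial cell cannot be told apart.

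**Figure D2:**
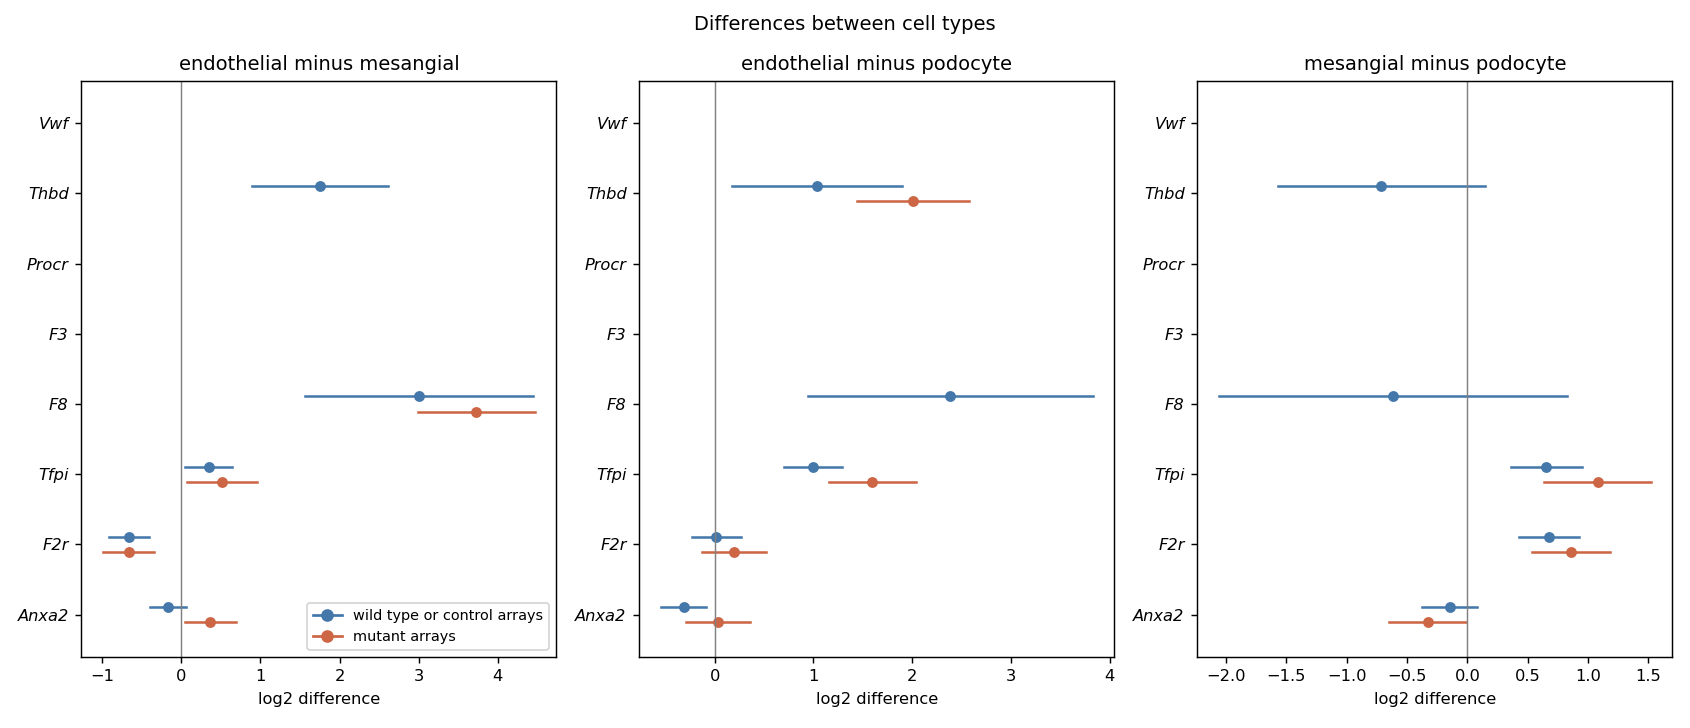
Log2 difference between cell types with its 95% interval for each gene, for wild type or control arrays (blue) and mutant arrays (orange); no point is drawn where 1 of the compared groups had no array at the signal minimum. The F2r intervals lie below 0 between endothelial and mesangial cells in both sets of arrays. The wild type or control points of F8 and Thbd against mesangial cells rest on 1 mesangial array at the minimum. The mutant point of Thbd against podocytes rests on 1 podocyte array at the minimum.

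The second question was what the Cd2ap mutation changed. F2r gave the clearest values. In endothelial cells it was 799, 743 and 779 in mutants against 602, 497 and 509 in wild type, in mesangial cells 1081, 1238 and 1382 against 764, 901 and 871, and in podocytes 693, 794 and 565 against 501, 579 and 506. The mutant arrays were all higher in endothelial and in mesangial cells, and in podocytes mutant array C lay within the wild type range. The log2 difference was 0.54 in endothelial cells (SE 0.10, limma adjusted p = 0.0529), 0.54 in mesangial cells (SE 0.12, adjusted p = 0.0680) and 0.36 in podocytes (SE 0.16, adjusted p = 0.357). Both of the first values missed the threshold by little, and each passed it under 4 of the alternative settings (0.0300 to 0.0482 in endothelial and 0.0226 to 0.0475 in mesangial cells). Under the other settings the adjusted p reached 0.0849 and 0.101, and with 1 array left out 0.204 and 0.191. Non-overlapping groups with higher mutants made up 17.9% of all clusters in endothelial cells and 11.7% in mesangial cells.

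The mean of the mutation effects in the 3 cell types, a contrast added after the values of F2r were seen and built from the same 18 arrays, was 0.48 for F2r (log2, SE 0.07, 95% interval 0.32 to 0.64, limma adjusted p = 0.00196). F2r was the 1 call among 3 members, where 5.40% of all clusters were called. Since the contrast restates the values that prompted it, it is a description and gives no support beyond the comparisons within cell types, none of which called F2r. The effect itself did not differ past the threshold between any 2 cell types: the endothelial minus mesangial difference of effects was -0.01 (95% interval -0.39 to 0.38) and the endothelial minus podocyte difference was 0.17 (95% interval -0.21 to 0.56). Marker sums moved in both directions beside F2r. The mesangial sum was lower in mutant podocytes than in wild type podocytes, and 7421 to 8553 in mutant against 10871 to 11897 in control mesangial cells. There 3 of 8 tested mesangial markers and 3 of 10 tested endothelial markers were called, all lower in mutants, where 2.65% of all clusters were called. The control arrays of that comparison include array C, with an endothelial sum of 10246 against 4812 and 5088. The sum of 5 smooth muscle and juxtaglomerular markers was 2970, 2374 and 1022 in mutant against 766 to 783 in wild type podocytes, and 1592, 2603 and 2892 in mutant against 1326 to 1609 in control mesangial cells. In podocytes 2 of 4 tested markers of that list passed the screen as higher and 0 were called (median 1.42), in mesangial cells 2 of 5 passed it and 0 were called, and in endothelial cells, with 1 tested, the sum was 333 to 387 in mutants and 305 to 432 in wild type. The part of these markers in the F2r values was not tested.

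Among the other members in endothelial cells, Thbd, F8 and Procr had higher mutant means without passing the test. F8 was 1721, 1386 and 1254 in mutants against 894, 1203 and 1122 (log2 0.44, 95% interval 0.08 to 0.79, limma adjusted p = 0.203). Thbd was 357, 468 and 395 against 301, 327 and 294 (0.40, 95% interval 0.12 to 0.67, adjusted p = 0.157). Procr overlapped between genotypes, at 177, 147 and 107 against 78.8, 146 and 107 (0.39, 95% interval -0.18 to 0.97, adjusted p = 0.425). Tfpi was 367, 399 and 297 against 347, 365 and 337 (0.01, 95% interval -0.27 to 0.29), and Anxa2 differed by 0.23 (95% interval -0.03 to 0.48, adjusted p = 0.311). In all, 0 of 6 members were called, where 1.22% of all clusters were, and 0 of 6 passed the study's own screen (unadjusted p under 0.05 and more than 1.5-fold), where 3.34% of all clusters did; 3 of 6 (Thbd, F8 and F2r) had an unadjusted p under 0.05, as had 17.3% of all clusters. The endothelial marker sum was 19934 to 20772 in mutant and 17723 to 19774 in wild type endothelial arrays, and that of the venous and fenestrated endothelial markers was 961, 693 and 898 in mutant against 495, 535 and 569 in wild type arrays, with 2 of 3 tested past the screen as higher and 0 called (median 0.89). The part of these markers in the values of F2r, F8, Thbd and Procr was not tested.

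In podocytes Tfpi was lower in mutants in the screen, and F8 was under the signal minimum in all mutant arrays. F8 was 95.8, 98.7 and 62.4 in mutants against 162, 283 and 184 in wild type, with no overlap and, since no mutant array reached the minimum, with no test. Tfpi was 156, 90.6 and 111 against 185, 178 and 163, also without overlap (-0.59, SE 0.20, adjusted p = 0.267). All mutant arrays were lower in 14.6% of all clusters. Thbd was 155, 86.3 and 76.2 against 135, 168 and 148, with mutant array A inside the wild type range (-0.58, adjusted p = 0.368). Array A was the 1 mutant array of Thbd at the minimum, so this value is given through it alone. F3 was 180, 124 and 97.1 against 75.9, 94.5 and 135 (0.39, 95% interval -0.26 to 1.04, adjusted p = 0.555), and Anxa2 differed by -0.13 (95% interval -0.42 to 0.17). The test called 0 of 5 members, where 0.0382% of all clusters were called, and the screen took 1 of 5 (Tfpi), where it took 5.15% of all clusters. Pairs of mutant podocyte arrays differed by a root mean square of 0.466 to 0.501 (log2) over clusters, against 0.271 to 0.296 in wild type podocytes. The erythroid sum was 5480, 807 and 328 in mutant podocyte arrays A, B and C, against 4069, 3063 and 4060 in wild type. Leaving out mutant array A brought Tfpi past the threshold (-0.80, limma adjusted p = 0.0468). With other arrays left out its difference went to -0.41 and its adjusted p to 0.611 at most.

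Endothelial markers moved with these podocyte values. Of 10 tested endothelial markers, 9 passed the screen as lower in mutant podocytes and 0 passed the adjusted test, with a median difference of -1.71 and, among them, -1.52 for Flt1, -1.60 for Pecam1 and -2.53 for Emcn. F8, Thbd and Tfpi, all with their highest signal in endothelial cells, had lower mutant podocyte means, and the part of endothelial RNA in their values was not tested.

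**Figure D3:**
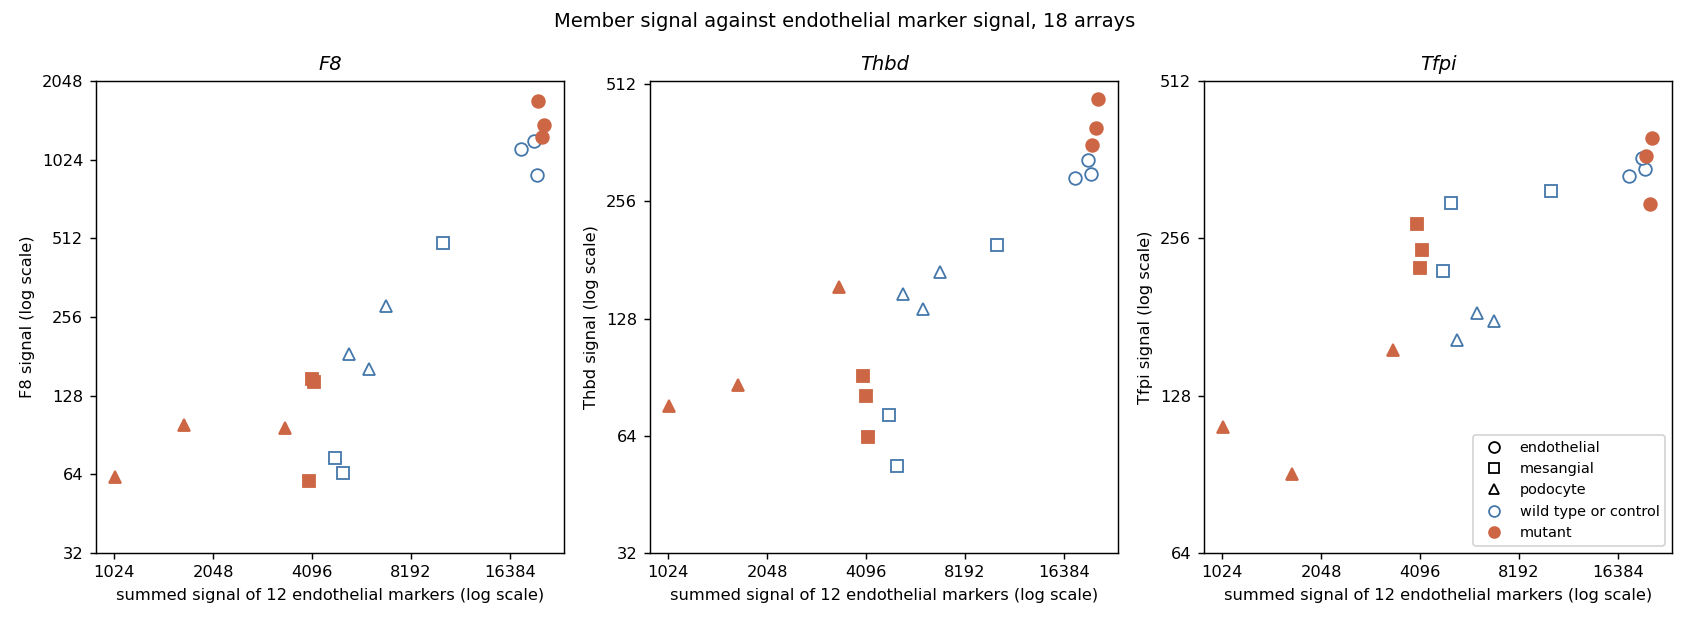
Signal of F8, Thbd and Tfpi against the summed signal of 12 endothelial markers on each of 18 arrays (both axes log scale); circles are endothelial, squares mesangial and triangles podocyte arrays, open blue for wild type or control and filled orange for mutant. The single mesangial square at a sum of 10246 is control array C, with F8 at 491, and the mutant podocytes lie at the lowest sums, 1031 to 3378.

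In mesangial cells the genotype values of F8 and Thbd rested on single arrays. F8 was 144, 147 and 60.1 in mutants against 73.6, 64.9 and 491 in controls, and its difference turned from -0.29 (limma adjusted p = 0.862) to 0.14 without mutant array C, and without control array C the remaining controls were under the minimum. Thbd was 63.6, 80.9 and 91.0 against 72.3, 53.6 and 198, and reached the signal minimum only in control array C, so no difference is given. Anxa2 was 717, 942 and 1027 against 1105, 1073 and 1118, all lower (-0.31, 95% interval -0.64 to 0.02, adjusted p = 0.258), in a comparison where 16.1% of all clusters had all mutants lower. Tfpi was 243, 225 and 272 against 221, 299 and 315 (-0.16, adjusted p = 0.585, and -0.064 without control array C). The test called 0 of 4 members, where 2.65% of all clusters were called, the screen took 0 of 4, where it took 4.14%, and 1 of 4 (F2r) had an unadjusted p under 0.05, as had 20.6% of all clusters. Without control array C, F2r stood at 0.57 (adjusted p = 0.106).

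**Figure D4:**
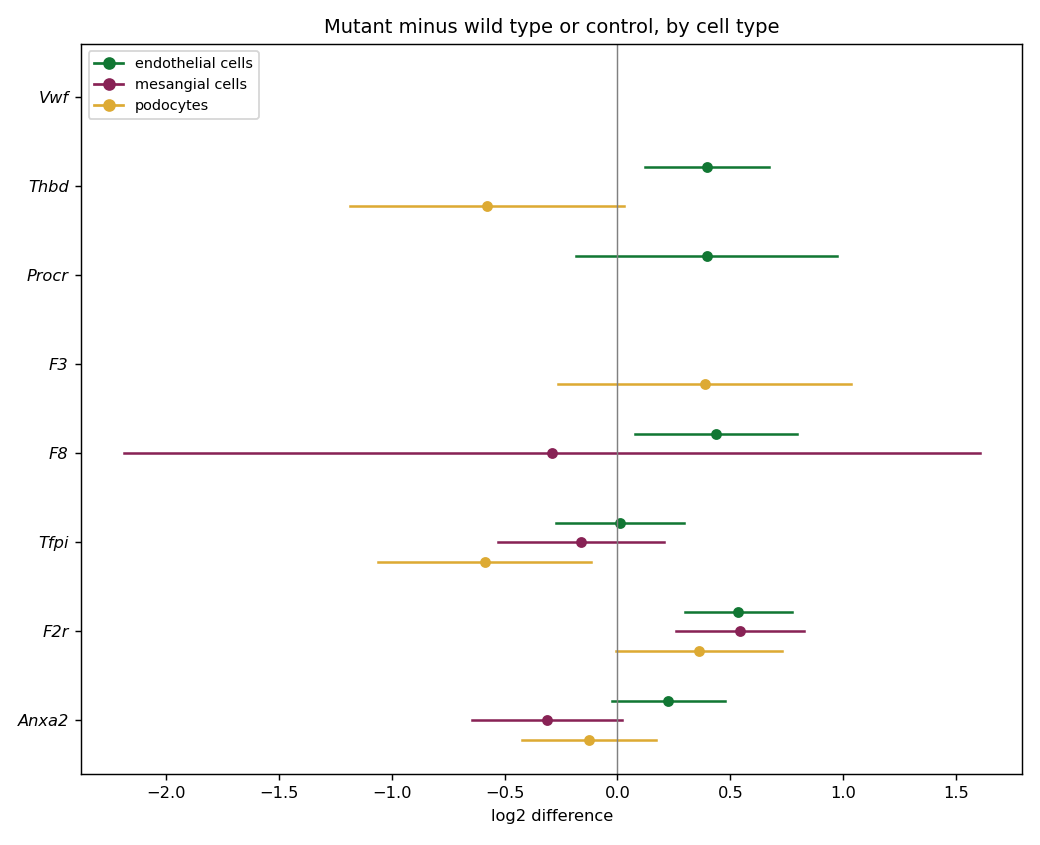
Log2 difference of mutant minus wild type (endothelial cells, green, and podocytes, yellow) or control (mesangial cells, purple) with its 95% interval for each gene; no point is drawn where 1 of the groups had no array at the signal minimum. F2r lies above 0 in all 3 cell types (0.54, 0.54 and 0.36), and Tfpi is near 0 in endothelial cells (0.01) and below 0 in podocytes (-0.59). In podocytes the Thbd point has 1 mutant array at the minimum and the F3 point 1 wild type array. In mesangial cells the F8 point has 1 control array at the minimum.

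The difference of the mutation effect between cell types was called for 0 of 4 members between endothelial and mesangial cells, 0 of 4 between endothelial cells and podocytes and 0 of 3 between mesangial cells and podocytes, where 0.622%, 2.21% and 0.569% of all clusters were called. In the first pair 1 member (Anxa2) and in the second 1 member (Tfpi) had an unadjusted p under 0.05, as had 14.9% and 24.2% of all clusters. Between endothelial cells and podocytes the effect on Thbd differed by 0.97 (limma adjusted p = 0.250) and that on Tfpi by 0.60 (SE 0.25, adjusted p = 0.165). The Thbd value is given through mutant podocyte array A, the 1 array of its group at the minimum. Anxa2 differed by 0.54 between endothelial and mesangial cells (adjusted p = 0.154, and 0.253 without control array C).

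Most other genes of the pathway were under the minimum on these arrays. Of 19 further coagulation factors and cofactors, 14 or 15 were under 100 in every array of a group, among them F7, F9, Fga and F2, and the genes that were measured were mainly those of secretion and vitamin K use (Lman1 and Mcfd2, which carry factors V and VIII out of the endoplasmic reticulum, and Ggcx and Vkorc1). The genotype test called 0 of 4 of them in endothelial cells, 0 of 4 in mesangial cells and 0 of 4 in podocytes, and their median difference was -0.0037, -0.065 and -0.28 against 0.072, -0.024 and -0.057 over all clusters. Of the 4 thrombin and protease receptors, F2r alone was above 100 in every array. F2rl2 reached it in podocyte arrays only (62.6, 104 and 135 in wild type and 87.6, 110 and 143 in mutants, against 40.7 to 47.0 in wild type endothelial cells). No difference between cell types is given for it, since it passed the minimum through podocytes alone. By genotype in podocytes, 2 of the 4 receptors, F2r and F2rl2, were tested and 0 were called. F2rl1 reached 100 in 1 array, a mutant podocyte array with 104, and F2rl3 in none.

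Of 12 anticoagulant proteins and inhibitors, 8 or 9 were under the minimum in every array of a group. Entpd1, the surface enzyme that removes ATP and ADP and so limits platelet activation, was the 1 gene of the pathway lists called between genotypes within a cell type. It has 2 transcript clusters, and only the one of higher mean signal was read. Other settings and left-out arrays were read for the members alone, so how far this call depends on them is not given. Entpd1 was 1220, 914 and 1371 in mutant against 563, 569 and 384 in wild type endothelial cells (log2 1.21, SE 0.20, limma adjusted p = 0.0313). The venous and fenestrated endothelial marker sums, given above, did not overlap between the same arrays, and their part in the Entpd1 values was not tested. Gas6, a vitamin K dependent ligand of TAM receptors, was 561, 401 and 548 against 323, 280 and 297 (0.73, adjusted p = 0.0546) and passed the screen. In mesangial cells Entpd1 was 160, 221 and 103 in mutants against 237, 351 and 400 (-1.06, adjusted p = 0.122), and Gas6 differed by -0.72 (adjusted p = 0.145). In podocytes Entpd1 was 103, 111 and 57.9 against 273, 246 and 159 (-1.33, adjusted p = 0.154), beside the lower endothelial marker sums given above.

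Among 10 genes of von Willebrand factor handling and Weibel-Palade bodies, the endothelial storage granules, 5 were tested in each cell type and 0 were called by genotype in any cell type. Cd63, a granule membrane protein, passed the screen in endothelial cells with overlapping groups (1.21, limma adjusted p = 0.202), and Mmrn2 in podocytes (-1.04, adjusted p = 0.232). A list of 12 genes holds the other annexins and S100a10, and of the 7 tested in each cell type 0 were called by genotype, while Anxa3 passed the screen in mesangial cells (0.82, adjusted p = 0.173). S100a10 differed by 0.28, -0.02 and -0.08 in endothelial cells, mesangial cells and podocytes (adjusted p = 0.348, 0.965 and 0.901). Platelet markers (Pf4, Itga2b and others) were under 100 in every array of a group for 8 or 9 of 9 measured.

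Genes of most similar pattern were sought among 9959 clusters by the root mean square difference of centred log2 values over 18 arrays. F8 was closest to Fmo1 (0.27), Flt1 (0.31), a VEGF receptor, and Gm8995 (0.38), where F8's own spread was 1.73. Thbd was closest to Ppap2a (0.24), Alox12 (0.30) and Ntn4 (0.30), with a spread of its own of 0.98. Tfpi was closest to Mef2a (0.18), Fmnl3 (0.18) and H2afz (0.18), and F2r to Zyx (0.18), Capg (0.19) and Scarb2 (0.21), with own spreads of 0.60 and 0.44. For Procr the nearest were Ikbkb (0.23), Ndel1 (0.24) and Flrt3 (0.24), and for F3 Tnfsf15 (0.20), Myo5b (0.23) and Marveld1 (0.23). Vwf, nearest to Panx2, Zfp385c and Slc29a2 (each 0.08), and Anxa2, nearest to Ndufb8, Tspyl1 and Bat3 (each 0.12), had own spreads of 0.12 and 0.19, so their neighbours share mainly a flat profile.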

How the data were processed

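The deposited table holds, per the file headers, the 18 arrays as a linear signal (intensity) and again as 18 columns of row-centred log2 values, which were not used here. The authors' sample records name RMA in Expression Console, the study's methods GeneSpring, and the series text another array and program, so the exact normalization stays uncertain. Here log2 of the intensity was used as deposited. Column names give an array's group but not its sample record. Members and lists were chosen with earlier results of these data known.

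A cluster entered a fit when 1 or more of its arrays reached a signal of 100, and was tested with limma 3.58.1 (lmFit, eBayes) in R 4.3.3. A call is a Benjamini-Hochberg adjusted p under 0.05 over all clusters tested. Members and clusters counted had at least 1 array of every compared group at that signal, a rule added after the values were seen. Genotypes were compared within a cell type (6 arrays), cell types within a genotype (9 arrays), and the difference and mean of mutation effects over 18 arrays. The fits were tested on simulated data. The text names all members, the members' partners, listed genes past a threshold between genotypes within a cell type (up to 5 a comparison), markers, and 3 nearest patterns per member. The number of arrays, 3 a group, limits the precision. Signals of different genes depend on their probes and were not compared.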

Additional observations from a re-analysis of the deposited data

Results flagged for a closer look

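Entpd1 gave both of the 2 calls (limma adjusted p under 0.05) among 64 differences of the mutation effect between cell types read for the members and the listed pathway genes, where 0.622%, 2.21% and 0.569% of all clusters were called in the 3 pairs. Its mutation effect in endothelial cells exceeded that in mesangial cells by 2.28 on the log2 scale (SE 0.44, limma adjusted p = 0.0176) and that in podocytes by 2.55 (SE 0.44, limma adjusted p = 0.0166). All 3 mutant arrays were higher in endothelial cells, and all 3 were lower in mesangial cells and in podocytes. The endothelial marker sum was also lower in mutant podocytes (1031 to 3378) than in wild type podocytes (5313 to 6882), as it was in mutant mesangial cells (4007 to 4144) against controls (4812 to 10246). In the difference between endothelial cells and podocytes, 2 of 2 tested venous and fenestrated endothelial markers were called as higher, as Entpd1 was. So were 1 of 3 arterial endothelial markers, with 3 past the screen, and 1 of 10 endothelial markers. The part of these markers in the Entpd1 values was not tested. Its second transcript cluster was not read, and its values under other settings or with an array left out are not given.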

How the results depend on the processing

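No paired analysis was possible because the labels number the arrays from 1 to 18, so that the groups share no replicate number. Each member has 1 transcript cluster, so there is no other cluster of the same gene to read. The second deposited form of the arrays, row-centred log2 values, was not run. Over 343 member values under settings other than a left-out array, 323 kept their direction and side of the threshold, 1 lost and 13 gained a call and 6 turned in direction; over 566 values with 1 array left out, 539 kept both, 5 lost and 9 gained a call and 13 turned.

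Genotype calls among members rose from 0 to 1, in each case F2r, under several settings. In endothelial and in mesangial cells these were the minimum required in all 3 arrays of a group, trend and robust eBayes, and 18 arrays in 1 fit. Subtracting array medians did so in endothelial cells, and quantile normalization of the fitted arrays did so in mesangial cells. Between cell types, quantile normalization of the fitted arrays added calls of Tfpi (wild type endothelial minus mesangial, limma adjusted p = 0.0249) and Thbd (wild type endothelial minus podocyte, 0.0477). It also added Anxa2 (mesangial minus podocyte, 0.0484 in wild type or control and 0.0264 in mutants). The minimum in all 3 arrays added the same Thbd call (0.0484). Leaving out mutant podocyte array A or B added Tfpi between mutant endothelial and mesangial cells (0.0290 and 0.0495). The screen took 1 member (0 called) in podocytes and 1 (0 called) for the endothelial minus podocyte effect, and 0 (1 called) for the mean effect. With 1 array left out, calls ranged from 0 to 1 in endothelial cells (F2r, without wild type array A, log2 0.62, adjusted p = 0.0305), 0 to 1 in podocytes, 1 to 4 between wild type endothelial cells and podocytes, 1 to 2 between mutant endothelial cells and podocytes, 0 to 1 for the endothelial minus podocyte effect and 1 to 2 for the mean effect (Tfpi joined without mutant podocyte array A, log2 -0.32, adjusted p = 0.0277). The counts over all clusters moved more, from 146 (83 to 271 under other settings, 49 to 253 with an array left out) in endothelial cells, 335 (258 to 729, 50 to 304) in mesangial cells and 7 (0 to 837, 0 to 344) in podocytes. The highest came with array medians subtracted (271), with trend and robust eBayes (729) and with 18 arrays in 1 fit (837). The first 2 are settings that also called F2r. Shares of all clusters under each setting are not given, so the member counts are not read against them.

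Quantile normalization of the fitted arrays turned Tfpi in endothelial cells to -0.12, the mutant endothelial minus podocyte differences of F2r to -0.033 and Anxa2 to -0.22, the Tfpi endothelial minus mesangial effect to -0.011 and the F2r endothelial minus podocyte effect to -0.039. Subtracting array medians turned the F2r endothelial minus mesangial effect to 0.080. With 1 array left out, values that turned ranged from -0.080 to 0.13 (Tfpi, endothelial genotype), -0.81 to 0.14 (F8, mesangial genotype), -0.069 to 0.085 (F2r, wild type endothelial minus podocyte), -0.028 to 0.080 (Anxa2, mutant endothelial minus podocyte) and -0.099 to 0.079 (F2r, endothelial minus mesangial effect). Settings that leave a compared group with no array at the minimum gave no value. The causes were not tested. Depth here means signal over background: Vwf, and Procr and F3 outside their own cell type, lie under the minimum, and no difference is given for them.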
